A study of Mus musculus with 2 samples.

Results

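The *Foxo* transcription factor genes and the genes for enzymes and proteins that handle reactive oxygen species were examined in mouse hematopoietic stem cells (HSCs). The members were *Foxo1*, *Foxo3* and *Foxo4*, the superoxide dismutases *Sod1* and *Sod2*, the catalase gene *Cat*, the glutathione peroxidase gene *Gpx1*, the thioredoxin-interacting protein gene *Txnip*, and the sestrins *Sesn1* and *Sesn3*. They were taken by gene symbol, and all 10 were found among the 24421 symbols of the count files. Of these, 9 had a mean of at least 1 CPM (counts-per-million of the gene counts) over both libraries, as did 12588 genes in all, and *Foxo4* did not.

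RNA was sequenced from 1 WT library and 1 library labelled Ezh2 KO, called the KO-labelled library below. Per the labels, the WT cells were *Ezh2* +/+ CreERT+/- and the others *Ezh2* Δ/Δ CreERT+/-, derived from floxed *Ezh2* fl/fl mice, and both were C57BL/6. Marrow of CD45.2 donors of either genotype had been placed in CD45.1 mice after a lethal radiation dose, and tamoxifen (100 µl at 10 mg/ml, daily for 5 days) was used to activate Cre-ERT, a recombinase that is inactive until the drug binds it. HSCs were sorted 1 month after tamoxifen from the recipients as CD150+, CD48-, CD34- and Flt3- cells among Lin-, Sca-1+ and c-Kit+ cells. The gate in the labels does not name CD45.2, and the number of mice behind each library and the promoter that drives Cre-ERT are not given in the sources used here. The labels give no age or sex, and the study's methods describe purchased female C57BL/6 mice without saying whether the Cre-ERT donors or the recipients were among them. *Ezh2* encodes the methyltransferase of Polycomb repressive complex 2.

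FOXO factors are forkhead transcription factors that insulin and growth factor signaling keeps in the cytoplasm, through AKT, and that enter the nucleus when this signaling is low. In HSCs they are known for maintaining quiescence and for limiting reactive oxygen species, and *Sod2*, *Cat*, *Txnip* and the sestrin genes are among their known targets. Superoxide dismutases turn superoxide into hydrogen peroxide, catalase and glutathione peroxidases remove the peroxide, TXNIP binds thioredoxin and limits glucose uptake, and sestrins restrain mTORC1.

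The promoters of *Txnip* and *Foxo1* are printed because both genes, described below, were higher in the KO-labelled library beyond counting error. *Gpx1* was too, but the bases before its RefSeq start overlap its annotated gene and are not printed. Each run holds the 250 bases before the RefSeq transcription start in GRCm38.p6, 5′ to 3′ on the plus strand, chr3:96557707-96557956 for *Txnip* and chr3:52268087-52268336 for *Foxo1*. Capitals mark the motifs named in the next paragraph.
Txnip: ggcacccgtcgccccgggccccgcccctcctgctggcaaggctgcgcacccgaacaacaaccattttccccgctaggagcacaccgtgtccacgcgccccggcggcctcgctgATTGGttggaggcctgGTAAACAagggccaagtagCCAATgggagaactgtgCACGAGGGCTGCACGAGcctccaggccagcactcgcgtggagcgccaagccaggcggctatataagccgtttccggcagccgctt
Foxo1: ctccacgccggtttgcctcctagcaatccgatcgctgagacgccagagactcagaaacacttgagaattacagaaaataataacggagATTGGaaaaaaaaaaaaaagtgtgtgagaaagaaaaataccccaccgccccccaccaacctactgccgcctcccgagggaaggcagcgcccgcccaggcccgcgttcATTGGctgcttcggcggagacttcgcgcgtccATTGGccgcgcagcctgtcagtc

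Both strands of the windows from 250 bases before to 50 after each start were searched for 6 motifs, and the members' matches did not overlap each other. RefSeq gave 10 windows for 9 members, with 2 for *Sesn1* and none for *Foxo4*, among 32851 windows in all. The FOXO core GTAAACA, which lay in 3.65% of all windows, was found in the *Txnip* window at position -121 from the start and in the first *Sesn1* window at position 23. The carbohydrate response element, taken as 2 copies of CNCGNG with 5 bases between them, lay in 1.39% of all windows and among the members only in that of *Txnip*, at position -85. This element binds the glucose-responsive factors MondoA and ChREBP. The CCAAT box, which NF-Y binds, lay in 8 member windows, 2 times in that of *Txnip* and 3 times in that of *Foxo1*, and in 37.4% of all windows. The antioxidant response element TGACNNNGC (12.4% of all windows) and TATAAA (13.6%) were each found among the members only in *Sod1*, at positions -56 and -37. The E-box CACGTG, present in 7.15% of all windows, was in no member window. The member windows were rich in CpG: all 10 held more CpG dinucleotides than the median window (7), and 9 had a GC content above the median of 52.7%, the exception being *Gpx1* at 47%. A match describes these letters and does not show that a factor binds them.

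The files held 5763118 gene counts for WT and 4157280 for the KO-labelled library. With 1 library per group there was no spread between replicates, so no test was made, and the 95% intervals given here cover counting error only. Reads amplified by PCR without molecular identifiers are not independent molecules, so the true error is larger. The count of *Ezh2* was 166 in WT and 129 in the KO-labelled library, or 142 and 150 normalized counts (counts divided by DESeq2 size factors), a log2 ratio of 0.08 (-0.27 to 0.42). A gene-level count does not show the loss of single exons, so it did not check the label. *Xist*, the noncoding RNA of X inactivation, had 801 counts in WT and 4 in the KO-labelled library, whereas the Y-linked *Ddx3y* had 0 and 275 and *Eif2s3y* had 0 and 194. Sex-linked transcripts thus differed between the libraries, and sex and genotype cannot be told apart. *Foxo4* is the only member on the X chromosome, and the 429 X-linked genes tested had a median log2 ratio of -0.03.

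HSC markers were present in both libraries. All 12 (among them *Kit*, *Slamf1*, *Procr* and *Hlf*) were detected, with a summed level of 5277 CPM in WT and 5547 CPM in the KO-labelled library, and 0 passed 2-fold. Their median log2 ratio was -0.04 with 8 of 12 below 0, and the intervals of 2 lay above equal levels and of 3 below. *Slamf1*, which encodes CD150 of the sort gate, was at -0.62 (-0.85 to -0.41) and *Fgd5* at -0.59 (-0.79 to -0.39). Summed markers of other cells differed between the libraries. The eosinophil list (9 of 10 genes in the files) summed to 1.21 and 781 CPM, with *Prg2*, *Epx* and 5 others at 0 counts in WT. The neutrophil list summed to 2133 and 3992 CPM. Of its 14 genes, 7 were past 2-fold higher, against 4.91% of all genes tested, and 3 lay below 0. Of these 3, *Elane* was lower beyond counting error (860 and 374 counts, log2 -0.76, -0.94 to -0.58). Immediate-early genes, which respond quickly to handling and signaling, summed to 14323 and 7571 CPM. Of the 15 tested, 7 were past 2-fold lower, against 3.9% of all genes tested. The erythroid list summed to 124 and 273 CPM, the B lymphoid list to 48.4 and 101 CPM, the megakaryocyte list to 563 and 298 CPM and the monocyte list to 566 and 674 CPM. Of the 11 erythroid genes, 9 lay above 0 and 2 below, and *Car1* was the highest (197 and 607 counts, log2 2.06). The 6 B lymphoid genes tested all lay above 0, and *Cd79b* held most of that sum (251 and 229 counts, log2 0.31). Of the 6 megakaryocyte genes, 3 lay above 0 and 3 below, and *Vwf* was the lowest (1677 and 411 counts, log2 -1.59). The 6 monocyte genes tested were also split, 3 above and 3 below. *Lyz2* held most of that sum (2848 and 2512 counts, log2 0.26), and *Csf1r* was past 2-fold lower (24 and 5 counts). Of the markers that the gate leaves out, *Flt3* had 98 and 140 counts (log2 ratio 0.95, 0.57 to 1.34), *Cd34* 957 and 829 (0.23, 0.10 to 0.37) and *Cd48* 12 and 11 (0.29, -1.01 to 1.62), and together they summed to 185 and 236 CPM. The part of these differences in the values below was not tested. In bulk RNA, fewer cells of a type and less RNA per cell cannot be told apart.

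No member reached a 2-fold difference. Of the 9 members tested, 0 were past 2-fold, against 8.81% of all genes tested (4.91% higher and 3.9% lower in the KO-labelled library). Among the 9670 genes with a mean of at least 10 CPM, the level of 8 of these members, 2.18% were past 2-fold (96 higher and 115 lower). The intervals of 3 members, *Txnip*, *Foxo1* and *Gpx1*, lay above equal levels and that of 0 lay below. Over all genes the interval left out equal levels in 40.0%, higher in 19.2% and lower in 20.8%. The members' median log2 ratio was -0.03, with 4 above 0 and 5 below, and that of all genes tested was -0.00. With so few members these counts are read as values of single genes and not as a result about the group.

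**Figure D1:**
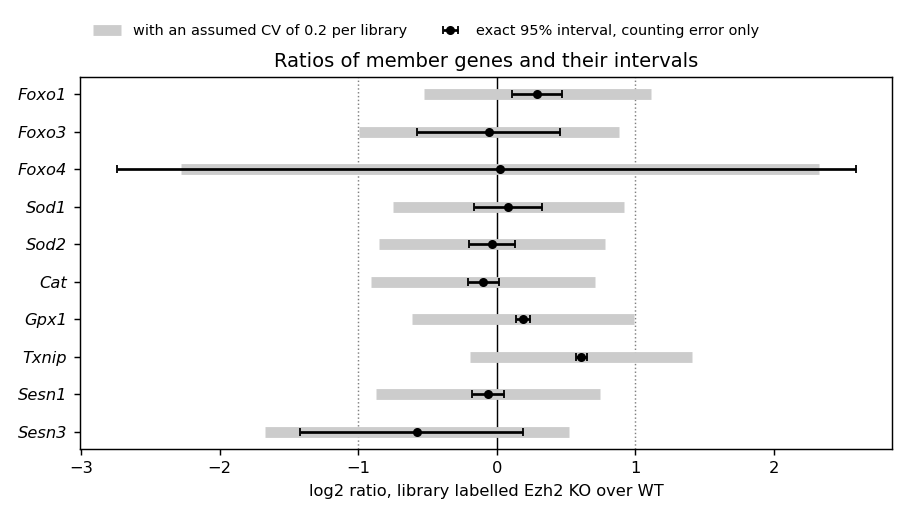
Log2 ratio of normalized counts, KO-labelled library over WT, for each of the 10 members. Points are ratios, black bars exact 95% counting intervals and grey bars intervals under an assumed coefficient of variation of 0.2 in each library, by a normal approximation that gives *Foxo4* a narrower bar than the exact one. Black bars lie above 0 for *Txnip*, *Foxo1* and *Gpx1*, and every grey bar spans 0.

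*Txnip* showed the largest difference among the members. It lies at chromosome 3, 96557957 to 96561883, on the plus strand of GRCm38 (GENCODE M21), with 6 exon blocks. It had 10141 counts in WT and 11393 in the KO-labelled library, although the latter library was the shallower. Normalized, these were 8702 (8534 to 8873) and 13276 (13034 to 13522), so the counting intervals were far apart. The ratio was 1.53-fold (1.49 to 1.57), or 0.61 on the log2 scale (0.57 to 0.65), and 19.2% of all genes tested lay at least as far from 0.

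The ratio of *Txnip* was set beside those of other abundant genes. *Txnip* took 1760 CPM in WT and 2740 CPM in the KO-labelled library. Of the 9670 genes with a mean of at least 10 CPM, 10.5% were past 1.5-fold in either direction, and of the 8 members at that level 1 was, *Txnip*. Of the 66 genes with a mean of at least 1000 CPM, a level chosen after the values were seen, 7 were past 1.5-fold (10.6%). *Txnip* was the only gene of these that was higher, and the 6 lower ones, *Dusp1*, *Egr1*, *Fos*, *Ier2*, *Junb* and *Zfp36*, are immediate-early genes.

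**Figure D2:**
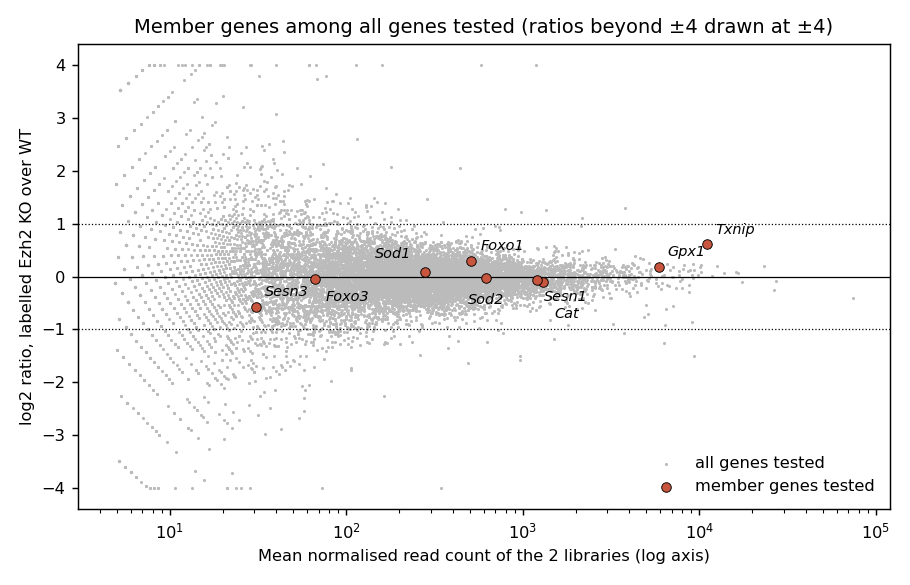
Log2 ratio (KO-labelled library over WT) against mean normalized count, on a log axis, for all genes tested (grey) and the 9 members tested (labelled). *Txnip* lies at the right, among the most abundant genes, above 0, and the other members lie nearer to 0. *Sesn3*, which has few counts, is the farthest below.

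A noncoding gene on the opposite strand, *Gm15441*, spans *Txnip* (chromosome 3, 96555765 to 96566801), and its exons overlap 606 bases of *Txnip*, 19.4% of the *Txnip* exon bases. The library kit keeps no strand, so reads from the pair cannot be told apart where they overlap. *Gm15441* had 1645 counts in WT and 1791 in the KO-labelled library, a 1.48-fold ratio (1.38 to 1.58). The count of *Txnip* was 6.16 times that of *Gm15441* in WT and 6.36 times in the KO-labelled library, a log2 change of 0.05 (-0.06 to 0.15), so a change of one against the other was not detectable.

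*Txnip* was also set against its binding partner and relatives. The *Txnip* count was 8.20 times that of *Txn1*, the cytosolic thioredoxin that TXNIP binds, in WT and 10.8 times in the KO-labelled library, a log2 change of 0.40 (0.28 to 0.53) that does not depend on scaling. *Txn1* itself had 1236 and 1051 counts (log2 ratio 0.21). Of the 5 alpha-arrestin relatives of *Txnip*, 4 were tested, their median was 0.25, and the intervals of 2 lay above equal levels. These were *Arrdc4*, with 819 and 770 counts and a log2 ratio of 0.35 (0.21 to 0.50), named after its value was seen, and *Arrdc2*, with 102 counts in each library and 0.44 (0.03 to 0.85). *Arrdc4* is, like *Txnip*, a known target of MondoA.

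The glutathione peroxidase gene *Gpx1* (chromosome 9, 108338903 to 108340343) was the other very abundant member. It had 6404 counts in WT and 5374 in the KO-labelled library, or 5496 (5362 to 5632) and 6262 (6096 to 6432) normalized counts. The counting intervals did not overlap, and the ratio was small at 1.14-fold (1.10 to 1.18; log2 0.19). Of all genes tested, 60.6% lay at least as far from 0. *Cat*, the peroxisomal catalase gene (chromosome 2, 103453849 to 103485160), had 1573 and 1083 counts, or 1349.9 and 1262 normalized, with a log2 ratio of -0.10 (-0.21 to 0.02) that spanned equal levels. The balance of these peroxide-removing genes thus differed between the libraries. *Gpx1* had 4.07 times the counts of *Cat* in WT and 4.96 times in the KO-labelled library, a log2 change of 0.29 (0.16 to 0.41).

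The superoxide dismutases differed little. *Sod1*, the cytosolic copper and zinc enzyme (chromosome 16, 90220754 to 90226329), gave 318 counts for WT and 248 for the KO-labelled library, or 273 and 289 normalized (log2 0.08, -0.16 to 0.33). *Sod2*, the mitochondrial manganese enzyme (chromosome 17, 13006846 to 13040063), had 728 and 524 counts, or 625 and 611 normalized (log2 -0.03, -0.20 to 0.13). Both intervals spanned equal levels. The *Sod2* count was 2.29 times that of *Sod1* in WT and 2.11 times in the KO-labelled library, a log2 change of -0.12 (-0.40 to 0.17). Stretches of 60 bases or more that match other genes' transcripts at 95% identity were sought in the longest annotated transcript. They covered 12% of that of *Sod1* (476 of 3970 bases) and 6.16% of that of *Sod2*, so reads there may have been lost or misplaced. *Sod1* has 2 annotated transcripts. The share of the shorter 1 was not measured and can be larger.

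*Foxo1* was the only *Foxo* gene whose interval left out equal levels. It lies at chromosome 3, 52268336 to 52353221, and had 534 counts in WT and 482 in the KO-labelled library, or 458 (420 to 499) and 562 (513 to 614) normalized. The ratio was 1.23-fold (1.08 to 1.39; log2 0.29), and 44.6% of all genes tested lay at least as far from 0. Of its exon bases, 9.32% matched other genes' transcripts over 60 bases or more at 95% identity. Among those genes is *Gm20402*, on the opposite strand, whose exons overlap 674 of the *Foxo1* exon bases (7.78%). *Gm20402* was not among the counted symbols, and without strand its reads cannot be told from those of *Foxo1* there. *Foxo3*, a factor that HSCs require for long-term maintenance (chromosome 10, 42181841 to 42276755), had 79 and 56 counts, or 67.8 and 65.3 normalized, a log2 ratio of -0.05 (-0.58 to 0.46). *Foxo4* (chromosome X, 101254528 to 101260873) had 4 and 3 counts, at or near the floor of 3 counts, so no difference was detectable at this depth.

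Per length, the 3 factors were far apart in level. In CPM per kilobase of exon, *Foxo1* stood at 10.7 in WT and 13.4 in the KO-labelled library, *Foxo3* at 1.81 and 1.78, and *Foxo4* at 0.199 and 0.207. *Foxo1* made up 87.1% (84.2 to 89.7) of the *Foxo1* and *Foxo3* counts in WT and 89.6% (86.7 to 92.0) in the KO-labelled library. The log2 change of their count ratio was 0.35 (-0.18 to 0.87) and spanned 0, so a gain of *Foxo1* over *Foxo3* was not detectable.

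The sestrins were likewise unequal. *Sesn1* (chromosome 10, 41809935 to 41908424), known as a target of both p53 and FOXO, had 1423 counts in WT and 1004 in the KO-labelled library, or 1221 and 1170.0 normalized (log2 -0.06, -0.18 to 0.06). *Sesn3* (chromosome 9, 14275067 to 14333101), a FOXO target that feeds back on AKT and mTORC1, had 43 and 21 counts, or 36.9 and 24.5 normalized. Its log2 ratio of -0.57 was the lowest among the members, but the interval was wide (-1.42 to 0.19) and spanned equal levels. *Sesn1* made up 97.1% of the counts of the pair in WT and 98.0% in the KO-labelled library. *Sesn2*, the stress-induced sestrin, which was not a member and is named after its value was seen, had 270 and 151 counts and a log2 ratio of -0.40.

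**Figure D3:**
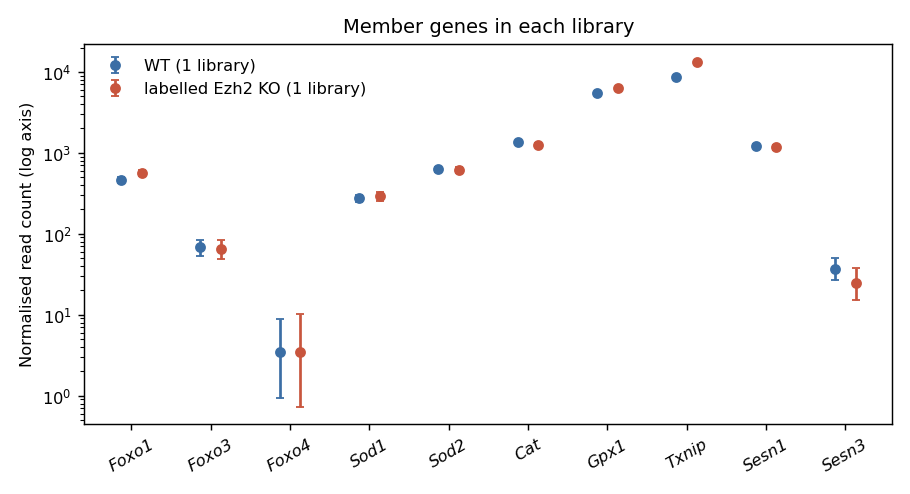
Normalized counts of the 10 members in WT and in the KO-labelled library, on a log axis. Each point is 1 library and bars are exact 95% Poisson intervals. *Txnip* sits at 8702 and 13276, while *Foxo4*, at 3.43 and 3.50, and *Sesn3* carry the widest bars.

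The members differed widely in level. Per length, the order in WT was *Gpx1* (771), *Txnip* (563), *Cat* (104), *Sesn1* (62.0), *Sod1* (13.9), *Sod2* (12.6), *Foxo1* (10.7), *Foxo3* (1.81), *Sesn3* (0.489) and *Foxo4* (0.199). Among neighbours in this order, *Sod1* and *Sod2* (ratio 1.10, 0.962 to 1.26) and *Sesn3* and *Foxo4* (2.45, 0.892 to 9.41) did not differ beyond counting error. In the KO-labelled library, *Gpx1* and *Txnip* no longer differed beyond counting error: the ratio of *Gpx1* to *Txnip* was 1.37 (1.33 to 1.41) in WT and 1.02 (0.989 to 1.06) there. The count ratio of *Txnip* to *Gpx1*, which needs no length, was 1.58 in WT and 2.12 in the KO-labelled library, a log2 change of 0.42 (0.36 to 0.49). The levels depend on the exon length used. With the longest transcript in place of all exons, an alternative added after the data were seen, *Gpx1* stayed above *Txnip* in both libraries (1.67 and 1.24 times) and *Sod2* lay above *Sod1*. The *Sod1* length was 3970 bases either way. A shorter *Sod1* transcript would raise its level per length and was not tried, so the place of *Sod1* in the order rests on the annotation used.

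The 10 members together took 21247 counts in WT, 0.369% (0.364 to 0.374) of gene counts, and 20188, 0.486% (0.479 to 0.492), in the KO-labelled library. *Txnip* made up 47.7% of the members' counts in WT and 56.4% in the KO-labelled library, so *Txnip* held the largest part in both. Most of the difference in the share lay in *Txnip* (1760 and 2740 CPM), with a smaller part in *Gpx1* (1111 and 1293 CPM). Of the 9 members tested, 5 had a ratio below 0, so the share is not a result about the group.

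Genes around the members in the FOXO and redox pathways were read from 11 lists with 180 genes, of which 165 were tested. Of these, 4 were past 2-fold higher and 2 lower, the intervals of 43 lay above equal levels and those of 34 below, and the median log2 ratio was -0.01. The medians and counts of the lists are descriptions, set beside the shares for all genes given above. The largest absolute ratio named in a list is that among genes averaging 50 normalized counts or more. In the PI3K and AKT arm upstream of FOXO (24 tested, median 0.04), 0 were past 2-fold higher and 1 was lower, *Pik3cb*, a catalytic subunit of PI3K, with 114 and 38 counts and a log2 ratio of -1.13 (-1.71 to -0.60). Among 25 modifiers and partners of FOXO proteins (median -0.03), 0 were past 2-fold. The largest absolute ratio there was that of *Skp2*, a ubiquitin ligase subunit that targets FOXO1, at -0.52 (-1.05 to -0.03).

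The other known FOXO target genes were mixed. Of 34, 30 were tested, 2 were past 2-fold higher and 0 lower, and the intervals of 7 lay above equal levels and of 6 below (median -0.03). *Bcl6*, a transcriptional repressor named after its value was seen, was among those past 2-fold, with 5 counts in WT and 24 in the KO-labelled library. Among 9 other forkhead genes (median 0.16) the largest absolute ratio was that of *Foxn3*, at 0.40 (0.26 to 0.55).

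The remaining antioxidant genes held few large differences. Of the 9 other dismutase and glutathione peroxidase genes, 5 were tested (median -0.11), with 1 ratio above 0 and 4 below. The 1 above was that of *Gpx3*, named after its value was seen, with 30 and 39 counts (log2 0.80, 0.10 to 1.56). *Gpx4*, which removes lipid peroxides, had 1437 and 983 counts (log2 -0.11, -0.22 to 0.01). *Gpx8*, a peroxidase of the endoplasmic reticulum named after its value was seen, had 17 counts in WT and 0 in the KO-labelled library. Its counting interval put the log2 ratio at -1.60 or lower. Among 21 peroxiredoxin, thioredoxin and glutaredoxin genes (median -0.01) 0 were past 2-fold, and *Glrx*, a glutaredoxin, had the largest absolute ratio (738 and 794 counts, log2 0.55, 0.40 to 0.69). In 12 genes of glutathione and NADPH supply, *Me1*, the cytosolic malic enzyme, had the largest absolute ratio at -0.44 (-1.04 to 0.13), which spanned equal levels.

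The NRF2 pathway list (17 tested, median 0.09) held 8 genes whose interval lay above equal levels and 3 below. Over all genes tested the shares were 19.2% and 20.8%. These intervals are narrow for abundant genes, and the 8 include *Ftl1*, with 18307 and 14304 counts, at a log2 ratio of only 0.09. *Hmox1*, heme oxygenase, was the only gene of that list past 2-fold, with 163 counts in WT and 252 in the KO-labelled library (log2 1.06, 0.78 to 1.36). Among 10 NADPH oxidase genes tested, which make superoxide, 1 was past 2-fold: *Cybb*, the catalytic subunit of the phagocyte oxidase, with 95 and 187 counts (log2 1.41, 1.05 to 1.79). *Cybb* is abundant in neutrophils and eosinophils, whose summed markers were also higher in that library, and their part in its value was not tested. Of the 8 genes of the GATOR complexes, through which sestrins act on mTORC1, 0 were past 2-fold, and *Wdr24* had the largest absolute ratio at -0.57 (-0.86 to -0.28).

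**Figure D4:**
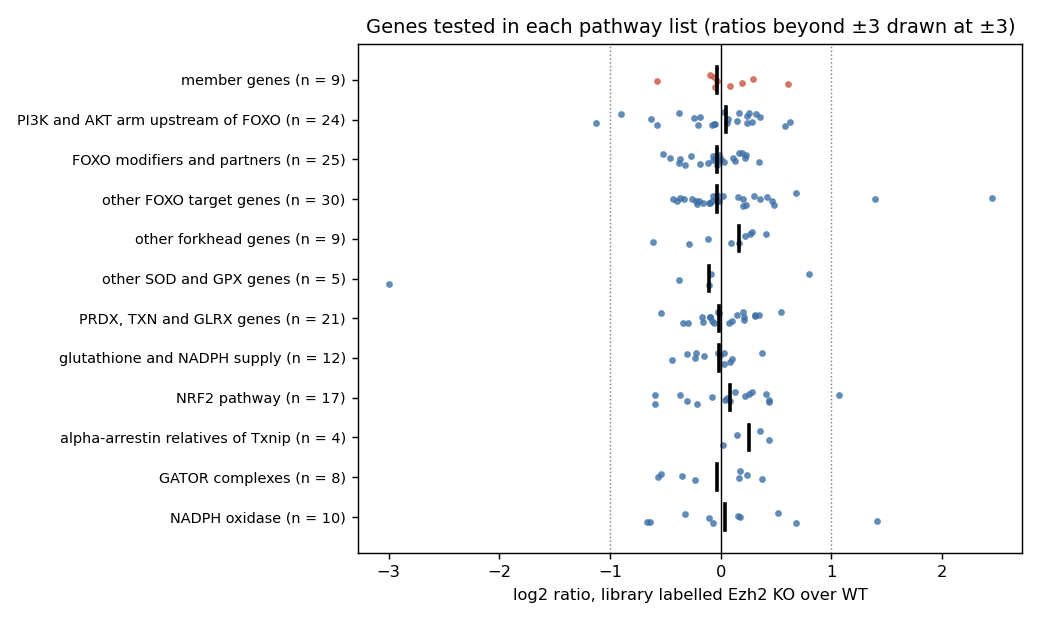
Log2 ratio (KO-labelled library over WT) of the tested genes in each pathway list, with the members as a list of their own. Each point is 1 gene and each black bar the median of its list. The medians lie between -0.11, for the other dismutase and glutathione peroxidase genes, and 0.25, for the alpha-arrestin relatives of *Txnip*. That of all genes tested was -0.003.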

How the data were processed

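RNA was measured in 1 WT library and 1 library labelled Ezh2 KO of sorted mouse HSCs, grouped by genotype and title. The authors deposited raw read counts per gene symbol, without normalization. Per the submitters' notes and the methods, reads were aligned to mm10 with TopHat2 2.0.13 and Bowtie2 2.1.0, and StringTie was named for counting. The files end with 5 entries of the kind htseq-count writes, so the counter and its strand setting are not settled, and the cDNA kit keeps no strand. These 5 entries (56.1% of all WT counts and 56.9% of those labelled Ezh2 KO) were left out.

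Size factors came from the median-of-ratios method of DESeq2 1.42.0 (R 4.3.3) and were 1.17 (WT) and 0.858 (Ezh2 KO), by which counts were divided. Ratios are log2((Ezh2 KO + 1)/(WT + 1)) of normalized counts. The 95% intervals are exact Clopper-Pearson intervals of the share of both libraries' counts, and intervals of changes in a ratio of 2 genes use a normal approximation on the log scale. They compare 2 libraries, not conditions, and no p-value is given. Genes with a mean of at least 1 CPM were counted as tested, and 3 counts was the floor (0.521 CPM in WT and 0.722 CPM in the other library). Positions and exon lengths are from GENCODE M21, where 24054 of 24421 symbols matched, promoters from RefSeq, and sequence matches from BLAST+ 2.17.0. The scripts were tested on simulated data.

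Named genes were all members, *Ezh2* and, from each pathway list, those past 2-fold and the 1 with the largest absolute ratio, with a mean of at least 50 normalized counts. A gene that this rule names is not reported here. Members and lists were chosen with earlier results of these data known. Other scalings, pseudocounts, filters and thresholds, thinning, left-out gene sets and an assumed spread between libraries were tried.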

Additional observations from a re-analysis of the deposited data

How the results depend on the processing

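No paired analysis was possible because only 1 library stood for either group, and hence no replicate could be left out and no edgeR or DESeq2 test was fitted. The members' and *Ezh2* ratios stayed inside their counting interval in 76 of 76 recomputations. These changed the scaling, the pseudocount, the WT depth or the genes kept, and do not measure the spread between replicates. Wide intervals such as that of *Foxo4* could hardly be left. List medians have no counting interval and were judged by a fixed cut-off on their shift, and 97 of 99 stayed within it. The others were GATOR (-0.23, from -0.04) and NADPH oxidase (0.18, from 0.04) with a mean of at least 10 CPM. Over the recomputations, *Txnip* ranged from 0.61 to 0.64 on the log2 scale, *Gpx1* from 0.19 to 0.22 and *Foxo1* from 0.29 to 0.32. *Foxo4* changed sign (-0.01 to 0.04), as did the median of the peroxiredoxin, thioredoxin and glutaredoxin genes (-0.01 to 0.02) and that of glutathione and NADPH supply (-0.03 to 0.01). Without a filter 2502 genes were past 2-fold in place of 1109, with a mean of at least 10 CPM 211 (96 higher and 115 lower), and at 1.5-fold 2582, with 1 member (*Txnip*) in place of 0. With an assumed coefficient of variation of 0.2 between libraries, 721 of all genes in place of 5037 had an interval off equal levels, and with 0.4, 162. Under both, 0 members in place of 3 did, and the *Txnip* interval with 0.2 was -0.19 to 1.41; by construction this setting adds spread. With the longest transcript as length, added after the data were seen, the log2 of *Sod2* over *Sod1* per length in the library labelled Ezh2 KO went from -0.25 to 0.52. Only the *Sod2* length changed there, and a shorter *Sod1* transcript was not tried. The depth limits *Foxo4*, *Sesn3* and *Foxo3*, whose intervals are the widest.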
